A study of Homo sapiens with 8 samples.

Results

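The genes described here are 10 genes of the unfolded protein response of the endoplasmic reticulum (ER): ATF6, ERN1, XBP1, HSPA5, HSP90B1, PDIA4, MANF, HERPUD1, CALR and CANX. They were chosen by name, as the rows of the deposited count table whose Ensembl gene carries one of these symbols, and all 10 were found among the 60646 genes of that table. RNA was sequenced from cultures of MDA-MB-231, an established human cell line derived from a triple-negative breast cancer. The 4 knockout samples came from cells labelled as a DOT1L knockout, written DOT1L/+, made by directing a guide RNA to the gene's first exon. The 4 wild-type samples carried the unedited DOT1L allele. DOT1L is the methyltransferase that modifies lysine 79 of histone H3. Both groups were grown in the same serum-supplemented medium with no drug named, plated below confluency and harvested a day later, and total RNA was depleted of ribosomal RNA. Beyond the notation DOT1L/+, nothing in the labels gives the number of edited alleles. Nor do the labels say whether the knockout cells were 1 clone, or whether the samples of a group were separate cultures. The spread behind each p-value may therefore be technical.

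The ER is the compartment where secreted and membrane proteins fold. When unfolded protein builds up there, the membrane sensors IRE1 (the product of ERN1), PERK and ATF6 are activated. IRE1 splices the XBP1 messenger RNA so that it encodes an active transcription factor, ATF6 is cut in the Golgi to release another, and PERK slows translation and favours that of ATF4. XBP1 and ATF6 then switch on genes for chaperones, folding enzymes and the machinery that removes misfolded proteins. Gene-level counts give the total level of each transcript and do not separate spliced from unspliced XBP1 or cut from uncut ATF6.

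In the knockout samples 8 of the 10 genes were lower and 2 were higher. PDIA4 and MANF fell by 0.80 and 0.73 on the log2 scale, and by 0.35 and 0.36 against their chromosomal neighbours. XBP1, HERPUD1, HSPA5 and HSP90B1 fell by 0.48, 0.48, 0.40 and 0.39, and CALR and ATF6 fell by 0.27 and 0.18. ERN1 rose by 0.22, and CANX rose by 0.15 but stood at -0.13 against its chromosomal neighbours. The median change of the 10 genes was -0.39, beside 0.0025 for all 19877 genes tested. A large part of the transcriptome differed between the groups. Of all tested genes 47.6% were called at an adjusted p below 0.05 by edgeR's quasi-likelihood test, 23.9% as higher and 23.6% as lower in knockout. The 2 groups did not overlap for 9 of the 10 genes, the exception being CANX, and did not overlap for 43.4% of all tested genes. Each of the 10 moved the same way in all 4 pairs of same-numbered samples, a pairing inferred from correlations and not a stated design. In the pair numbered 3 the log2 change was only 0.04 for CANX and 0.10 for ERN1. How many of all tested genes moved the same way in all 4 pairs was not counted. The genes took 0.460% ± 0.0118 of all counts in knockout and 0.487% ± 0.0116 in wild-type samples (SD, n = 4 each), with CANX giving the largest part of it.

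Totals per sample ran from 40103408 to 50031412 counts, and the 10 genes had between 689 counts (ERN1) and 116250 counts (CANX) in a sample. DOT1L itself was at 78.07 to 92.33 CPM (counts scaled to library size) in the 4 knockout samples, against 100.9 to 118.3 CPM in the 4 wild-type samples. The log2 change of DOT1L was -0.37 (adjusted p = 2.83e-05). Its chromosomal neighbours were lower by 0.13, and against them DOT1L was at -0.23 (adjusted p = 0.00799). The calls split as 50.3% higher with TMM scaling, 61.2% with library totals and 61.9% with upper-quartile scaling, and the last 2 scalings shifted the median change of all genes up by 0.07. The line's markers VIM, CD44 and AXL were abundant, and ESR1, PGR and CDH1 stayed below 1 CPM in all 8 samples. EPCAM was at 5.85 to 7.77 CPM in knockout and 6.26 to 6.87 CPM in wild-type samples. Of these markers VIM was higher (log2 change 0.40, adjusted p = 8.82e-06) and AXL lower in knockout (-0.30, 1.66e-05). ESR1, at its low level, was higher by 1.0 (0.0333), and CD44 and EPCAM did not pass. PGR and CDH1 were not among the tested genes. PGR had 18 counts over the knockout group and 5 over the wild-type group, and CDH1 had 41 and 1. The 5 markers of other cell types (PTPRC, PECAM1, COL1A1, PDGFRB and ALB) summed to 24.55 to 30.29 CPM in knockout samples and 11.03 to 20.36 CPM in wild-type samples. Within that list COL1A1 was higher in knockout (log2 change 0.89, adjusted p = 1.41e-05), and PTPRC and ALB were near 0. PDGFRB (0.59, adjusted p = 0.215) and PECAM1 (0.09, 0.833) did not pass. The part of all these markers in the results below was not tested. In bulk RNA, a lower level in every cell and fewer cells with the transcript cannot be told apart.

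**Figure D1:**
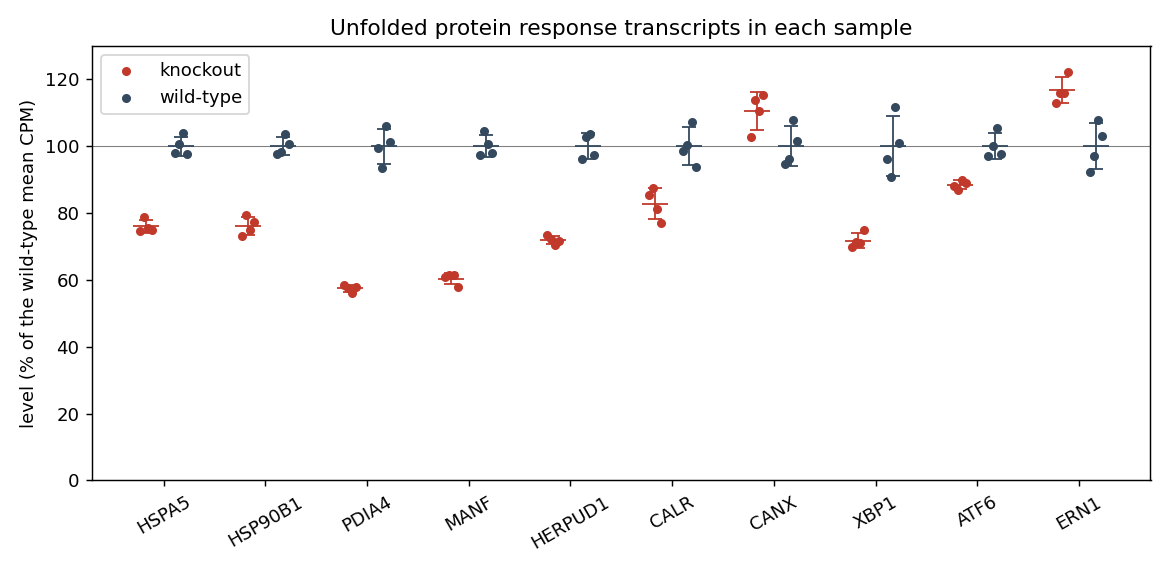
Level of each of the 10 genes in each sample as a percent of the gene's wild-type mean CPM (linear axis from 0), with knockout left of wild-type; points are samples, long ticks the group means and bars the SD (n = 4 each). The knockout points lie below all wild-type points for 8 genes, above them for ERN1, and overlap them for CANX.

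Promoters of ER chaperone genes are known for the ER stress response element, or ERSE, the letters CCAAT, then any 9 bases, then CCACG. The factor NF-Y binds the first group of letters, and ATF6 or XBP1 the last. A related element, ERSE-II, reads ATTGG, any 1 base, CCACG. Windows from 250 bases before to 50 bases after the transcription start in RefSeq (GRCh38.p14) were searched on both strands, in the first window listed for each gene where RefSeq lists several (4 for CANX, 2 for XBP1 and 2 for PDIA4). That of CANX lies inside the GENCODE gene. A whole ERSE was found in the windows of 5 of the 10 genes, and in 22 of 27305 genes in all (0.0806%). HERPUD1 held an ERSE-II, as did 15 genes in all (0.0549%). The elements are shown because they are the part of these promoters through which the response is known to act. Capitals mark the fixed letters of the element, 15 bases are given on each side, and each sequence runs 5′ to 3′ along the gene. Where the element lies on the opposite strand the capitals read CGTGG before ATTGG.

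HSPA5, chr9:125241376-125241424 (minus strand): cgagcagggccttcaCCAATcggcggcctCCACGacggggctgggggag

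HSP90B1, chr12:103930201-103930249 (plus strand): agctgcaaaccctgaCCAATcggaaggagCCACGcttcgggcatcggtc

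HSP90B1, chr12:103930306-103930354 (plus strand): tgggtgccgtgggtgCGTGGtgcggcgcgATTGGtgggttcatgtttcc

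CALR, chr19:12938369-12938417 (plus strand): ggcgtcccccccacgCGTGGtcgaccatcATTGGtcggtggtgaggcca

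CANX, chr5:179698763-179698811 (plus strand): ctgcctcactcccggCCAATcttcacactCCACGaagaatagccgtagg

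XBP1, chr22:28800588-28800636 (minus strand): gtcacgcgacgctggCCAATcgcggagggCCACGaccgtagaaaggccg

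HERPUD1, chr16:56932010-56932050 (plus strand): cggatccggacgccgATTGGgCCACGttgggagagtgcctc

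The HSPA5 element starts at position -66 from the transcription start and that of XBP1 at -52. HSP90B1 holds an element at -194 and another, reversed, at -89. The CALR element, also reversed, starts at -225, that of CANX at -151 and the ERSE-II of HERPUD1 at -117. CANX carries the same CCAAT and CCACG letters at the same spacing as HSPA5. HSPA5 fell, while CANX was at 0.15, and at -0.13 against its neighbours, where it did not pass. Whether the element bears on either change was not tested. The windows of PDIA4, MANF, ATF6 and ERN1 hold neither whole element. The core of the UPRE, another XBP1 element (TGACGTGG), was in 0 of the 10 windows and in 217 genes (0.795%). CCACG alone was in the windows of 8 of the 10 genes and in 37.9% of all genes, and CCAAT in 9 and in 35.7%. These matches overlap, since each ERSE contains both. Of the 9 other tested genes with an ERSE, 2 were higher (FICD and TMEM120A), 3 were lower (ALG12, SERP1 and TRIM5), and the median log2 change was -0.09. Of the 10 others with an ERSE-II, 0 were higher and 6 were lower, with a median of -0.12. The weakest of the 6 had adjusted p-values of 0.0408 and 0.0492. Of all tested genes 23.9% were called higher and 23.6% lower. Whether carriers of either element differed from other genes was not tested. FICD, TMEM120A, ALG12, SERP1 and TRIM5 were named after their values were seen.

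The windows of HSPA5, which holds an ERSE, and of PDIA4 and MANF, which fell and hold none, are given whole, as 300 bases from 250 before to 50 after the start. In the first the capitals mark the ERSE. In the other two the capitals mark each CCAAT and CCACG on either strand, none of which stand at ERSE spacing.

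HSPA5, chr9:125241294-125241593 (minus strand): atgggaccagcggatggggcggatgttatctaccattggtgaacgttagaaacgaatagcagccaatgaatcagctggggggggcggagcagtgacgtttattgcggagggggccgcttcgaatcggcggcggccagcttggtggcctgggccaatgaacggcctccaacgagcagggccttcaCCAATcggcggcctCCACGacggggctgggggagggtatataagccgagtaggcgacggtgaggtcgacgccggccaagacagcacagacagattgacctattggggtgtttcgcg

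PDIA4, chr7:149028441-149028740 (minus strand): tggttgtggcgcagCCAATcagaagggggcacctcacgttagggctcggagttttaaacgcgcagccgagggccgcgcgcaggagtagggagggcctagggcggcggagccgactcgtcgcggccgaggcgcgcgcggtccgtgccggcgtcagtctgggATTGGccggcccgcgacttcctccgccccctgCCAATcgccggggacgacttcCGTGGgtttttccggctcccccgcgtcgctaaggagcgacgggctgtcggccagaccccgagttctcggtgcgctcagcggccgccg

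MANF, chr3:51385041-51385340 (plus strand): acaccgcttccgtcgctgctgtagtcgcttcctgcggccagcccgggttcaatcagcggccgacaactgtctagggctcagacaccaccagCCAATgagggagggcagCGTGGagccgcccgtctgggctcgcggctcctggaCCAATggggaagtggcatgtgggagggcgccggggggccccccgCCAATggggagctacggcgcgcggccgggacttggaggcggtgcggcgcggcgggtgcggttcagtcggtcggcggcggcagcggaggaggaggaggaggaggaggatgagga

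ATF6 (ENSG00000118217, chromosome 1, 161766294 to 161964070 on GRCh38, plus strand) encodes the sensor that is cut to release a transcription factor. It was at 81.44, 80.26, 83.12 and 82.13 CPM in knockout replicates 1, 2, 3 and 5, against 89.57, 92.44, 97.28 and 90.12 CPM in wild-type replicates 1, 2, 3 and 5. Every knockout sample lay below every wild-type sample, though by a small margin. The log2 change of ATF6 was -0.18 ± 0.04 (SE; adjusted p = 0.00232), and -0.11 with library totals or upper-quartile scaling, still past the threshold. Its 20 nearest tested genes on the chromosome, 10 on each side, went the other way. Their median level in a sample, in log2 CPM centred on each gene's mean, was higher by 0.26 in knockout. The median of their own log2 changes was 0.19, with 10 of them called higher and 1 lower. Set against those neighbours, ATF6 was lower by 0.43 (adjusted p = 8.67e-07).

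ERN1 (ENSG00000178607, chromosome 17, 64039142 to 64130819, minus strand) encodes IRE1, the kinase and endoribonuclease that splices XBP1. It was at 20.08, 20.63, 20.65 and 21.73 CPM in knockout replicates 1, 2, 3 and 5, against 16.40, 17.26, 19.21 and 18.33 CPM in the wild-type replicates. The lowest knockout sample lay above the highest wild-type sample. ERN1 rose by 0.22 ± 0.06 (SE; adjusted p = 0.00656), and its neighbours hardly differed, with a median difference of -0.02.

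XBP1 (ENSG00000100219, chromosome 22, 28794555 to 28800597, minus strand) encodes the transcription factor made from the transcript that IRE1 splices. It was at 55.93, 57.04, 56.93 and 59.91 CPM in knockout replicates 1, 2, 3 and 5, against 77.01, 72.78, 89.57 and 80.92 CPM in the wild-type replicates. The groups stood far apart, and wild-type replicate 3 was the highest, as it was for all of the 10 genes but MANF. XBP1 fell by 0.48 ± 0.06 (SE; adjusted p = 3.59e-07), with a neighbour difference of 0.03, and by 0.51 against its neighbours (adjusted p = 1.36e-06). The processed pseudogene XBP1P1, whose reads could be split with it, had 127 counts over all 8 samples.

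HSPA5 (ENSG00000044574, chromosome 9, 125234853 to 125241330, minus strand) encodes BiP, the HSP70 chaperone of the ER lumen, which also holds the sensors inactive. It was at 410.2, 432.6, 413.9 and 411.6 CPM in knockout replicates 1, 2, 3 and 5, against 537.9, 551.7, 570.0 and 535.9 CPM in the wild-type replicates. Knockout replicate 2 stood a little above the other 3, and all 4 were far below wild-type. The mean was 417.1 ± 10.5 CPM in knockout and 548.9 ± 15.8 CPM in wild-type (SD, n = 4 each). HSPA5 fell by 0.40 ± 0.05 (SE; adjusted p = 2.86e-07) and its neighbours differed by -0.02.

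HSP90B1 (ENSG00000166598, chromosome 12, 103930107 to 103953645, plus strand) encodes the HSP90 chaperone of the lumen. It was at 523.3, 566.8, 534.7 and 552.4 CPM in knockout replicates 1, 2, 3 and 5, against 697.3, 702.1, 740.2 and 718.1 CPM in the wild-type replicates. The groups did not overlap, and the fall of 0.39 ± 0.05 (SE; adjusted p = 5.17e-07) was close to that of HSPA5. The log2 ratio of HSPA5 to HSP90B1 counts was -0.38 ± 0.031 in knockout and -0.38 ± 0.031 in wild-type samples (SD, n = 4 each), a difference of 0.00 (exact two-sided permutation test over samples, p = 0.886). UQCC6 overlaps HSP90B1 on the opposite strand over 121 exon bases, and the sources used here do not give the strand setting of the counting. UQCC6 had 1955 counts over the knockout group and 2032 over the wild-type group, against 25583 to 35024 counts of HSP90B1 per sample. The processed pseudogene HSP90B2P had 1154 counts over the 8 samples.

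PDIA4 (ENSG00000155660, chromosome 7, 149003062 to 149028641, minus strand) encodes a protein disulphide isomerase of the lumen. It was at 166.6, 163.7, 159.5 and 164.2 CPM in knockout replicates 1, 2, 3 and 5, against 282.5, 265.4, 301.7 and 287.6 CPM in the wild-type replicates. The knockout samples lay within a few CPM of each other, and the gap to wild-type was many times their spread. PDIA4 fell by 0.80 ± 0.05 (SE, adjusted p = 1.23e-11). Among the 13212 tested genes of mean log2 CPM at least 1, 3.53% had a lower change. The median level of its 20 neighbours was itself lower by 0.44 in knockout, and the median of their own log2 changes was -0.49. Of these neighbours 11 were called lower and 1 higher. Set against them PDIA4 fell by 0.35 ± 0.05 (adjusted p = 8e-06).

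MANF (ENSG00000145050, chromosome 3, 51385047 to 51389397, plus strand) encodes a small secreted protein of the lumen that is induced by ER stress. It was at 52.72, 53.31, 53.11 and 50.05 CPM in knockout replicates 1, 2, 3 and 5, against 84.19, 90.39, 87.03 and 84.72 CPM in the wild-type replicates. The groups again lay far apart, and MANF fell by 0.73 ± 0.05 (SE; adjusted p = 3.2e-11). Of its 20 neighbours 16 were called lower and 2 higher, and their median level was lower by 0.36. Set against them MANF fell by 0.36 ± 0.05 (adjusted p = 9.08e-06).

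HERPUD1 (ENSG00000051108, chromosome 16, 56932048 to 56944863, plus strand) encodes a membrane protein of the complex that sends misfolded proteins for degradation. It was at 36.96, 36.36, 35.43 and 36.01 CPM in knockout replicates 1, 2, 3 and 5, against 48.35, 51.74, 52.22 and 49.10 CPM in the wild-type replicates. The groups did not overlap, and HERPUD1 fell by 0.48 ± 0.05 (SE; adjusted p = 4.82e-08). Here 10 of 20 neighbours were called lower and 2 higher, with a median lower by 0.29. Set against them HERPUD1 fell by 0.18 ± 0.05 (adjusted p = 0.0099).

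CALR and CANX encode calreticulin and calnexin, the lumenal and the membrane-bound lectin chaperone that bind the same glycan on folding glycoproteins. CALR (ENSG00000179218, chromosome 19, 12938578 to 12944489, plus strand) was at 946.8, 967.5, 899.8 and 851.6 CPM in knockout replicates 1, 2, 3 and 5, against 1091, 1111, 1189 and 1038 CPM in the wild-type replicates. The groups did not overlap, and CALR fell by 0.27 ± 0.05 (SE; adjusted p = 0.000287). Its neighbours differed by -0.03.

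CANX (ENSG00000127022, chromosome 5, 179678628 to 179730925, plus strand) was at 2052, 2279, 2211 and 2305 CPM in knockout replicates 1, 2, 3 and 5, against 1894, 1921, 2154 and 2030 CPM in the wild-type replicates. Knockout replicate 1 lay among the wild-type samples, so the groups overlapped. The rise of CANX by 0.15 ± 0.06 (SE; adjusted p = 0.037) passed the test over all samples. With knockout replicate 2, 3 or 5 left out CANX no longer passed (adjusted p = 0.116, 0.0817 and 0.0974), nor with wild-type replicate 1, 2 or 5 left out (0.148, 0.11 and 0.0513). The median level of the 20 neighbours of CANX was higher by 0.28, and the median of their own log2 changes was 0.35. Of these neighbours 11 were called higher and 0 lower. Set against them CANX was at -0.13 ± 0.07 (adjusted p = 0.142).

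**Figure D2:**
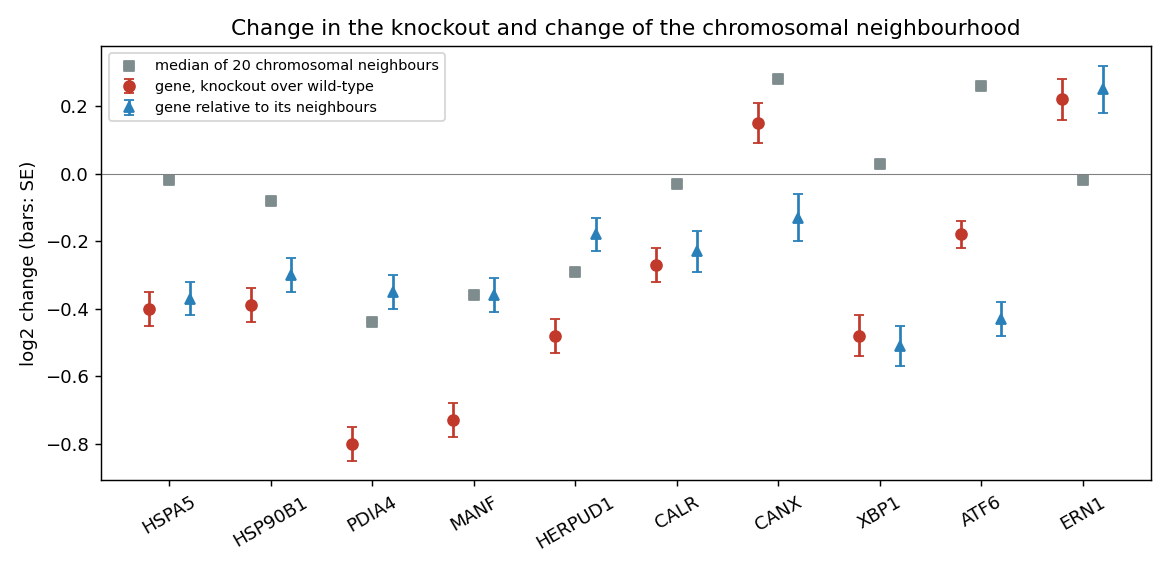
Log2 change of each gene in knockout over wild-type (circles). Squares give the difference between groups in the per-sample median of its 20 chromosomal neighbours. Triangles give the change of the gene with those neighbours as the baseline, and error bars are SE. The 8 falls stay below 0 against the neighbours, ERN1 stays above 0, and CANX is at 0.15 by itself and at -0.13 against them.

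Ratios of counts within a sample do not depend on how libraries are scaled, and 5 pairs of genes with related roles were compared. The log2 ratio of CANX to CALR was 1.12, 1.24, 1.30 and 1.44 in knockout replicates 1, 2, 3 and 5, against 0.80, 0.79, 0.86 and 0.97 in the wild-type replicates. The lowest knockout sample stood above the highest wild-type sample, and the means of 1.27 ± 0.13 and 0.85 ± 0.083 (SD, n = 4 each) differed by 0.42. The ratio of ERN1 to XBP1, the splicing enzyme to its substrate, was -1.47 ± 0.0068 in knockout and -2.17 ± 0.073 in wild-type samples, a difference of 0.70. The ratio of ATF6 to its paralog ATF6B was 0.23 ± 0.055 in knockout and 0.10 ± 0.024 in wild-type samples, a difference of 0.12. The ratio of PDIA4 to P4HB, the founding disulphide isomerase, was -1.98 ± 0.02 in knockout and -1.29 ± 0.025 in wild-type samples, a difference of -0.69. P4HB itself averaged 644 ± 18.2 CPM in knockout and 693 ± 25.2 CPM in wild-type samples and did not pass the test (log2 change -0.10, adjusted p = 0.0759). Each of these 4 differences gave p = 0.0286 in the exact two-sided permutation test over samples, the smallest that 4 against 4 can give, and 0.0358 after adjustment over the 5 ratios. Paired by replicate number, the smallest p that sign changes of 4 pairs can give is 0.125, which each of the 4 reached. The ratios do not remove the change of chromosomal neighbours. Against its neighbours CANX was at -0.13 and CALR at -0.23, ERN1 at 0.25 and XBP1 at -0.51, ATF6 and ATF6B both at -0.43, and PDIA4 at -0.35 and P4HB at -0.12 in log2 change.

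**Figure D3:**
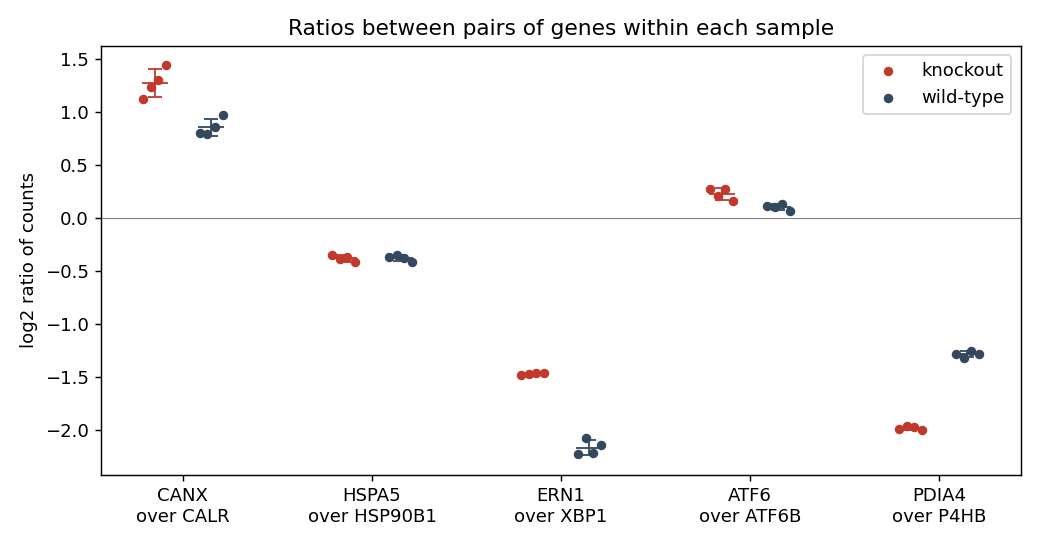
Log2 ratio of counts (vertical axis) for 5 pairs of genes in each sample, knockout left of wild-type; points are samples, long ticks the group means and bars the SD (n = 4 each). The groups separate in 4 pairs and coincide for HSPA5 over HSP90B1.

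To compare levels between genes, CPM were divided by the length of the gene's merged exons in kilobases. CANX was at 354.7 ± 18.3 CPM per kb in knockout and 320.7 ± 19.0 in wild-type samples (SD, n = 4 each). CALR was at 337.7 ± 19.0 in knockout and 407.9 ± 23.0 in wild-type samples. Next came the general chaperones, with HSP90B1 at 115.9 ± 4.09 in knockout and 152.2 ± 4.12 in wild-type samples and HSPA5 at 106.7 ± 2.68 in knockout and 140.5 ± 4.03 in wild-type samples. Below them, in both groups, stood PDIA4, MANF, XBP1, ATF6, HERPUD1 and ERN1 in that order. ERN1, the lowest, was at 1.912 ± 0.0636 in knockout and 1.638 ± 0.113 in wild-type samples. CALR and CANX were the only genes of the 10 to change places. Their ranges overlapped in knockout, at 313.8 to 356.5 for CALR and 329.0 to 369.7 for CANX, and did not overlap in wild-type. Other genes next to each other in the order did not overlap in either group.

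**Figure D4:**
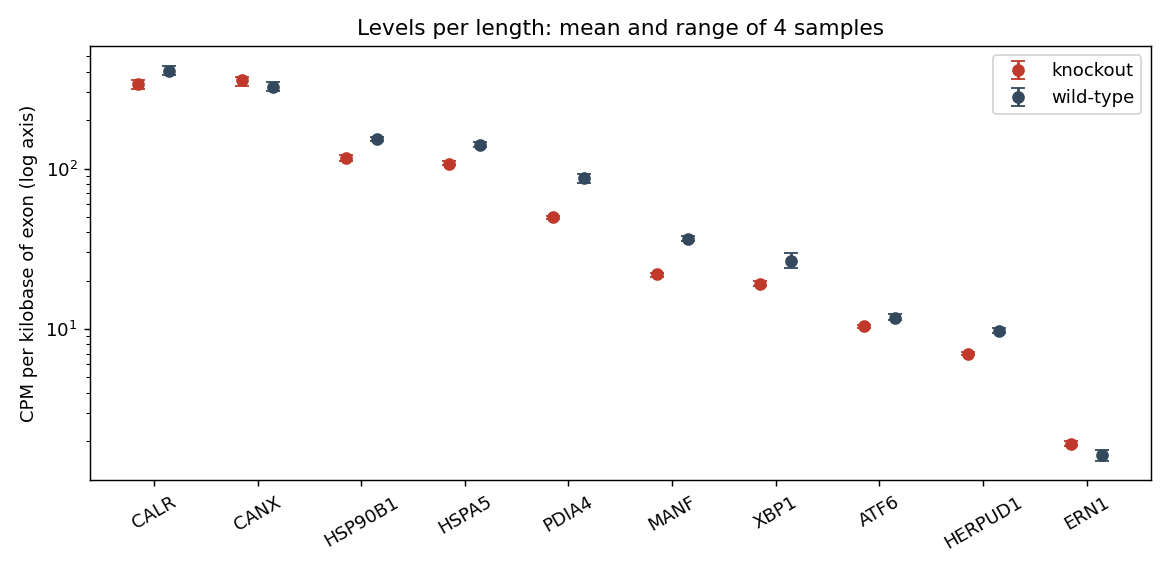
Level per exon length (CPM per kb, log axis) of the 10 genes, knockout left of wild-type, ordered by the wild-type level; points are means and bars run from the lowest to the highest of 4 samples. CALR and CANX exchange the top place, and the order below them is the same in both groups.

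Profiles over the 8 samples were compared between each of 2 genes and 13212 tested genes by the root mean square difference of log2 CPM centred on each gene's mean. The measure includes the difference between the groups, so close genes have similar log2 changes. The gene most like HSPA5 was ITFG1 (0.0228), followed by ZNF48 (0.0242) and, at rank 3, HSP90B1 (0.0270). Their log2 changes were -0.38, -0.40 and -0.39, beside -0.40 for HSPA5. The remaining genes of the 10 ranked from 95 (HERPUD1) to 10079 (ERN1), with MANF at 4146 and PDIA4 at 6075. ITFG1 averaged 31.2 ± 0.493 CPM in knockout and 40.6 ± 0.764 CPM in wild-type samples (SD, n = 4 each). The genes most like PDIA4 were CUL1 (0.0209), SLC25A22 (0.0347) and RPS6KB2 (0.0351), each with a log2 change of -0.80, as for PDIA4. CUL1 lies on chromosome 7 at 148697914 to 148801036, close to PDIA4, and averaged 66.2 ± 0.961 CPM in knockout and 115 ± 6.65 CPM in wild-type samples.

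Of 115 other genes of ER folding, quality control and stress signalling, in 8 lists, 112 were tested, of which 10 were higher, 42 were lower and 60 did not pass the test. Their median log2 change was -0.08. The counts stand beside the 23.9% and 23.6% of all genes called higher and lower. With library totals 21 of them were higher and 36 lower, and with upper-quartile scaling 21 and 35. The lists were not tested as sets.

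Of the 10 tested genes among the other sensors, their proteases and partners, 0 were higher and 6 were lower, with a median of -0.18. WFS1, which encodes an ER membrane protein induced by the response, averaged 24.8 ± 0.478 CPM in knockout and 35.7 ± 2.94 CPM in wild-type samples and fell by 0.53 (adjusted p = 2.72e-07). MBTPS1, the Golgi protease that makes the first cut of ATF6, averaged 113 ± 3.04 CPM in knockout and 149 ± 8.48 CPM in wild-type samples and fell by 0.40. ATF6B averaged 69.9 ± 2.67 CPM in knockout and 86.0 ± 2.56 CPM in wild-type samples and fell by 0.30. MBTPS2, which makes the second cut, did not pass (70.8 ± 3.91 CPM in knockout and 72.0 ± 5.78 CPM in wild-type samples). The neighbours of WFS1 and MBTPS1 were lower by 0.23 and 0.24, and against them these genes fell by 0.28 and 0.16 (adjusted p = 0.000381 and 0.0463). Those of MBTPS2 were higher by 0.16, and against them MBTPS2 fell by 0.18 (adjusted p = 0.0139). Of the whole list 5 were lower against neighbours, and also 5 with any 1 of the 8 samples left out.

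Of 11 tested genes of the PERK and ATF4 arm, 0 were higher and 7 were lower, with a median of -0.31. With library totals or upper-quartile scaling 5 were lower, with DESeq2 8 and with a replicate block 9. ATF4, the transcription factor at its centre, averaged 221 ± 9.7 CPM in knockout and 274 ± 12.2 CPM in wild-type samples and fell by 0.31 (adjusted p = 1.89e-05). Its targets SESN2, which restrains growth signalling, and TRIB3, a pseudokinase, fell by 0.71 and 0.37 (adjusted p = 9.51e-06 and 5.9e-05). CHAC1, which degrades glutathione, averaged 6.24 ± 0.698 CPM in knockout and 9.66 ± 3.13 CPM in wild-type samples and fell by 0.64 (adjusted p = 0.0317). CHAC1 no longer passed with knockout replicate 2, 3 or 5 left out (adjusted p = 0.0758, 0.0718 and 0.0964) or wild-type replicate 5 left out (0.0583), and without knockout replicate 3 only 4 genes of this arm were called lower. CHAC1 was at 14.29 CPM in wild-type replicate 3, above the other wild-type samples, and its log2 change without that sample was -0.38 (adjusted p = 0.00377). EIF2AK3, which encodes PERK, averaged 15.8 ± 0.19 CPM in knockout and 17.5 ± 0.325 CPM in wild-type samples (log2 change -0.15, adjusted p = 0.0492), and did not pass against its neighbours (-0.12, adjusted p = 0.153).

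Of 19 other chaperones and co-chaperones, 1 was higher and 7 were lower, with a median of -0.09. SERPINH1, the collagen chaperone, averaged 79.3 ± 1.95 CPM in knockout and 143 ± 7.97 CPM in wild-type samples and fell by 0.85 (adjusted p = 5.45e-12). Its neighbours were lower by 0.53, and against them it fell by 0.31 (adjusted p = 5.83e-05). FKBP9, a prolyl isomerase, and DNAJC1, a co-chaperone of BiP, fell by 0.37 and 0.33, while DNAJB9, a co-chaperone of BiP that the IRE1 arm induces, did not pass (10.2 ± 0.497 CPM in knockout and 10.9 ± 1.22 CPM in wild-type samples).

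Of 16 disulphide isomerases and oxidases, 1 was higher and 5 were lower, with a median of -0.08. ERO1A, the oxidase that recharges the isomerases, averaged 318 ± 6.16 CPM in knockout and 443 ± 6.78 CPM in wild-type samples and fell by 0.48 (adjusted p = 9.21e-09). TMX4 rose by 0.33 (adjusted p = 5.72e-06) and TMX3 fell by 0.21 (adjusted p = 0.00376). Both encode membrane-anchored isomerases. With library totals or upper-quartile scaling 2 genes of this list were higher and 3 lower.

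Of 7 other genes of the lectin cycle, 1 was higher and 2 were lower. GANAB, the catalytic subunit of glucosidase II, averaged 435 ± 8.28 CPM in knockout and 613 ± 31.0 CPM in wild-type samples and fell by 0.49 (adjusted p = 2.64e-08), or by 0.14 against its neighbours (adjusted p = 0.0394). MOGS, which removes the first glucose, fell by 0.24 (adjusted p = 7.52e-05). PRKCSH, the other subunit of glucosidase II, rose by 0.14 (adjusted p = 0.0195), but stood at -0.06 against its neighbours (adjusted p = 0.54), and it no longer passed with knockout replicate 3 or 5 left out (0.0514 and 0.0523) or wild-type replicate 1 or 2 left out (0.0792 and 0.0777). With knockout replicate 1 or wild-type replicate 3 left out, 2 genes of this cycle were higher.

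Of 23 tested genes of ER-associated degradation, 6 were higher and 6 were lower, with a median of -0.03. The ubiquitin ligase MARCHF6 fell by 0.71 (adjusted p = 2.5e-10) and SELENOK fell by 0.63 (adjusted p = 2.51e-08). Their neighbours were lower by 0.47 and 0.51. Against them MARCHF6 fell by 0.23 (adjusted p = 0.00678), and SELENOK was at -0.11 (adjusted p = 0.176).

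Of 15 genes of the translocon and signal peptidase, 0 were higher and 5 were lower, with 1 higher without knockout replicate 5 and 3 higher with library totals or upper-quartile scaling. The signal peptidase subunits SPCS3, SPCS2 and SPCS1 fell by 0.92, 0.66 and 0.38 (adjusted p = 1.43e-10, 5.38e-09 and 5.39e-06), and their neighbours were lower by 0.80, 0.37 and 0.46. Against those neighbours SPCS2 fell by 0.28 (adjusted p = 0.0017), while SPCS3 was at -0.12 (0.0975) and SPCS1 at 0.08 (0.298). Of 11 genes of the oligosaccharyltransferase, which attaches glycans to new proteins, 1 was higher and 4 were lower. OSTC averaged 33.2 ± 1.79 CPM in knockout and 71.6 ± 1.2 CPM in wild-type samples and fell by 1.11 (adjusted p = 1.57e-13), or by 0.29 against neighbours that were lower by 0.81. MAGT1 fell by 0.25 and DAD1 rose by 0.24 (adjusted p = 0.000409 and 0.00152), and neither passed against its neighbours (0.0575 and 0.0802). Genes of this complex called higher numbered 2 without knockout replicate 5 and 4 without wild-type replicate 3. With library totals or upper-quartile scaling 4 of them were higher and 3 lower, and against neighbours 0 were higher and 2 lower.

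**Figure D5:**
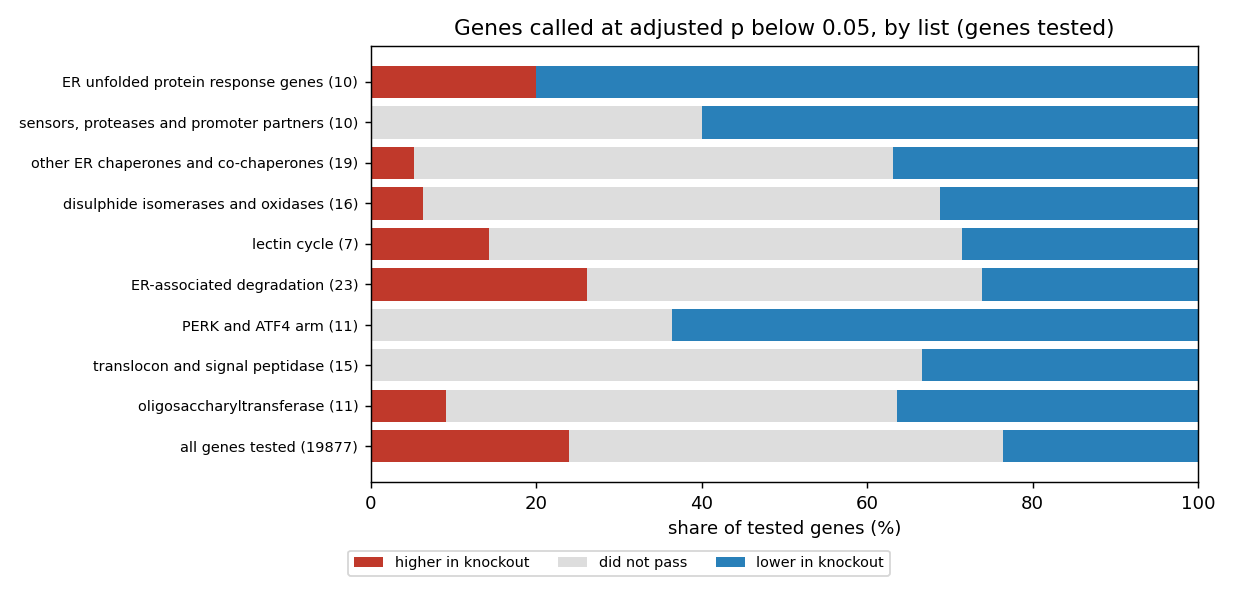
Share of tested genes (%, horizontal axis) called higher in knockout, called lower in knockout, or not passed, for the 10 genes, each of the 8 other lists and all 19877 genes; the number tested is in parentheses. The lower segment holds 8 of the 10 genes and 7 of 11 of the PERK and ATF4 arm, beside 23.6% of all genes. With library totals or upper-quartile scaling 5 genes of that arm were lower.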

How the data were processed

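Levels were compared between 4 DOT1L knockout and 4 wild-type MDA-MB-231 samples. The authors deposited raw counts per Ensembl gene and a second table of variance-stabilized values on a log2 scale. The submitters' processing notes name FastQC 0.11.7, STAR 2.6.0c, Subread 1.6.2 with featureCounts, DESeq2 1.23.10 and hg38. Strand setting, annotation release and handling of multimapping reads are not given in the sources used here.

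Of 60646 genes 60333 matched a symbol and 58459 a GENCODE 29 position (GRCh38, the same build as hg38). 0 genes of the mitochondrial genome were in the table. Counts were fitted in R 4.3.3 with edgeR 4.0.16 (filterByExpr, TMM scaling, robust quasi-likelihood test, group as the single term), with Benjamini-Hochberg adjustment over 19877 genes and a threshold of 0.05. CPM used TMM factors, so 1 count stood for 0.0198 to 0.0250 CPM. Profiles used log2 CPM with a prior count of 2. Neighbour changes are differences between group means of a per-sample median. That median was taken over 10 tested genes on each side, in log2 CPM centred on each gene's mean. It then served as an offset. Promoter windows came from RefSeq, GRCh38.p14.

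On simulated data drawn for knockout against wild-type, with 19066 genes, the fit called 85.1% of the 67 genes simulated with a 1.5-fold change. It called 98.5% of the 67 with 2-fold and 100% of the 66 with 4-fold. The false share among its 208 calls was 9.13%, above the threshold of 0.05. Only those 67, 67 and 66 genes were changed, whereas 47.6% of genes were called in the data. The simulated rates may therefore not hold for the data. Replicates of a group differed by more than sampling noise (chi-square over its degrees of freedom, 3.41 to 18.4). Both groups carry the numbers 1, 2, 3 and 5. Same-numbered samples deviated together (over 13212 genes, correlations ran from 0.153 to 0.391, and those of differently numbered samples from -0.301 to 0.0596). Samples were therefore treated as paired by number in an alternative fit, on this evidence and not a stated design.

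The 10 genes, the 8 lists and the 5 ratios were chosen with earlier results of these data known. Text names follow a rule: the 10 genes, DOT1L, the ratio partners, the 3 called genes with the largest change and mean log2 CPM of at least 1 in each list, and the 3 closest profiles. A gene that the rule holds is not reported here by name. ATF4, EIF2AK3, MBTPS2, DNAJB9, the marker genes, pseudogenes, overlapping genes and other promoter-element genes were named outside it. ATF4, EIF2AK3, MBTPS2 and DNAJB9 were chosen for their roles after their values were seen. Alternatives were other scalings, filters, a replicate block, the neighbour offset, DESeq2 1.42.0, limma 3.58.1 on the variance-stabilized values, and leaving out each sample.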

Additional observations from a re-analysis of the deposited data

Results flagged for a closer look

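HSPA5 was at 432.6 CPM in knockout replicate 2, above the other 3 knockout samples. The gap to the nearest of them was 0.835 of the group's range, over Dixon's critical value for 4 samples. In all 30 groups of 4 were checked, of which chance flags about 1 in 20. The sample still lay below every wild-type sample.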

How the results depend on the processing

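The falls of ATF6, XBP1, HSPA5, HSP90B1, PDIA4, MANF, HERPUD1 and CALR and the rise of ERN1 kept their direction and their side of the threshold under all 17 alternatives, 8 of which left out 1 sample. With a replicate block 2 of the 10 genes were higher and 8 lower, as without it, so the pairing changed no call among them. Exact sign changes of the pairs gave p = 0.125 for the ratio differences of 0.42 (CANX over CALR), 0.70 (ERN1 over XBP1), 0.12 (ATF6 over ATF6B) and -0.69 (PDIA4 over P4HB), the smallest p that 4 pairs allow. With the neighbour offset 1 of the 10 genes was higher, CANX was at -0.13, PRKCSH at -0.06 and SPCS1 at 0.08, and 6 genes of the 8 lists were higher. With library totals and with upper-quartile scaling 21 genes of those lists were higher. What moved these values was not tested. Leaving out 1 sample at a time gave 1 to 2 of the 10 genes higher, 8 to 8 lower, 8 to 15 and 38 to 45 genes of the lists higher and lower, and 4210 to 4959 and 4253 to 4647 genes higher and lower in all. CANX then ran from 0.12 to 0.19 and its adjusted p from 0.00117 to 0.148. The HSPA5 to HSP90B1 difference ran from -0.02 to 0.01, and was 0.01 without knockout replicate 5 or wild-type replicate 2. The ATF6 to ATF6B difference ran from 0.11 to 0.15 (exact p 0.0286 to 0.0571). Wild-type replicate 3 had the lowest TMM factor (0.9463). Without it the 8 falls among the 10 genes were smaller and the 2 rises larger. XBP1 was then at -0.42, CALR at -0.23, ATF6 at -0.15, CANX at 0.19 and ERN1 at 0.27.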
